A study of Mus musculus with 8 samples.

Results

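Cytosolic ribosomal proteins are the protein part of the 80S ribosome that translates nuclear-encoded mRNAs, and the genes for them were taken from the deposited tables by symbol: Rps or Rpl followed by a number, with a, x, l or l1 as the only endings allowed, and Rplp0, Rplp1, Rplp2 and Rpsa. The rule found 83 of 24346 gene symbols, 32 of the small subunit and 51 of the large subunit. Of the 83, 80 had a mean of at least 1 FPKM over all libraries and were tested, among 11506 tested genes. The 3 that did not reach it were Rpl3l, Rpl39l and Rpl10l. The rule left out Rps3a1, Rps27rt, Rpl36al, Fau and Gnb2l1 (Rack1), which also encode ribosomal proteins or proteins bound to the ribosome.

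RNA was taken from living stromal cells sorted out of mouse large intestine as podoplanin+ CD45- CD31- EpCAM- 7AAD-, and FPKM is a fragment number divided by the length of the transcript and the size of the library. The 4 cKO mice were Pdgfra cre; Il10ra flox/flox and the 4 WT mice Il10ra flox/flox, each mouse giving 1 library and each aged 12 weeks. Both groups therefore carried the floxed receptor gene, and Cre acts in cells that express, or whose ancestors expressed, Pdgfra, a fibroblast receptor. The question of the study was what loss of the interleukin 10 receptor does to these cells.

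Each ribosomal subunit holds 1 copy of nearly every one of its proteins, so the genes for them are transcribed in step and are among the most abundant mRNAs of a cell. Their mRNAs begin with a pyrimidine run, the terminal oligopyrimidine (TOP) motif, through which mTORC1, a growth-regulating kinase, controls their translation and stability. Nearly all of the genes are intron-bearing single loci, but the mouse genome also holds many intronless copies made by reverse transcription, which share nearly all their exonic sequence.

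FPKM sums were 464037 to 491789 per library, 11273 to 11804 genes reached 1 FPKM, and depths read from the steps between low values lay at 0.869 to 1.10 times that of WT 1. The 9 stromal markers, Pdgfra and Pdpn among them, were all detected. They summed to 17830, 20720, 21720 and 17840 FPKM in cKO 1 to 4, against 19620 to 20580 FPKM in WT libraries. The 20 epithelial markers summed to 1298, 600, 156 and 60.4 FPKM in cKO 1 to 4, against 73.0 to 159 FPKM in WT libraries, and the 13 myeloid markers to 186 FPKM in cKO 1 and 89.6 to 98.4 FPKM in cKO 2 to 4, against 82.3 to 114 FPKM in WT libraries. All 20 epithelial markers were higher in the cKO mean, at a median log2 difference of 0.89, and of 0.23 without cKO 1. Summed levels in cKO and WT libraries were 196 to 285 and 207 to 253 FPKM for smooth muscle, 8.95 to 24.3 and 6.02 to 9.72 FPKM for endothelial, 39.2 to 180 and 52.7 to 93.3 FPKM for lymphoid, 58.8 to 111 and 70.02 to 181 FPKM for erythroid and 1.51 to 2.28 and 0.659 to 1.62 FPKM for glial markers. cKO 1 had the highest sum of all 8 libraries for epithelial, myeloid, lymphoid, endothelial and glial markers and the lowest for stromal markers, and counts are given with and without it. In the cKO mean 8 of 9 smooth muscle markers were higher, at a median log2 difference of 0.20, and of 0.15 without cKO 1. The 3 tested endothelial markers were higher in 3 of 3 (0.47, and 0.33 without cKO 1), the myeloid in 10 of 12 (0.23, and -0.03 without cKO 1) and the lymphoid in 5 of 8 (0.03, and 0.04 without cKO 1). Il10ra itself was at 0.439, 0.273, 0.633 and 0.636 FPKM in cKO 1 to 4 and 0.842, 0.665, 0.614 and 0.403 FPKM in WT 1 to 4. These ranges overlap at a level near the filter, and the floxed part of the gene is not named in the labels, so the expression values do not check the genotype.

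Ribosomal protein transcripts were lower in the cKO mean than in the WT mean in nearly the whole family, by a small and even amount. Of 80 members 78 had a lower mean, which 52.6% of all tested genes also had, and the exceptions were Rpl26 and Rps4l. The median log2 difference, cKO minus WT, was -0.15 on the log2(FPKM + 1) scale, with quartiles of -0.18 and -0.11, against a median of -0.01 over all tested genes. No member passed the Benjamini-Hochberg adjusted p of 0.05 in limma (0 of 80), where 0.00869% of all tested genes did, which is the single gene Mir5098. The smallest adjusted p of a member was 0.897.

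At an unadjusted limma p under 0.05, 44 of 80 members (55.0%) were lower in cKO, beside 3.03% of all tested genes. None of the 80 was higher at that p, beside 2.37% of all tested genes. In 29 members all 4 cKO libraries lay below all 4 WT libraries, which 1.9% of tested genes did, and 0 members showed the reverse, which 1.36% of tested genes did. The members share libraries and their values move together, so these counts are not 80 separate results. The count of 44 ranged between 22 and 67 when any 1 library was left out, beside 2.02% to 4.14% of all tested genes. It was 20 after quantile normalization, beside 2.9%, and the median difference was then -0.10.

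**Figure D1:**
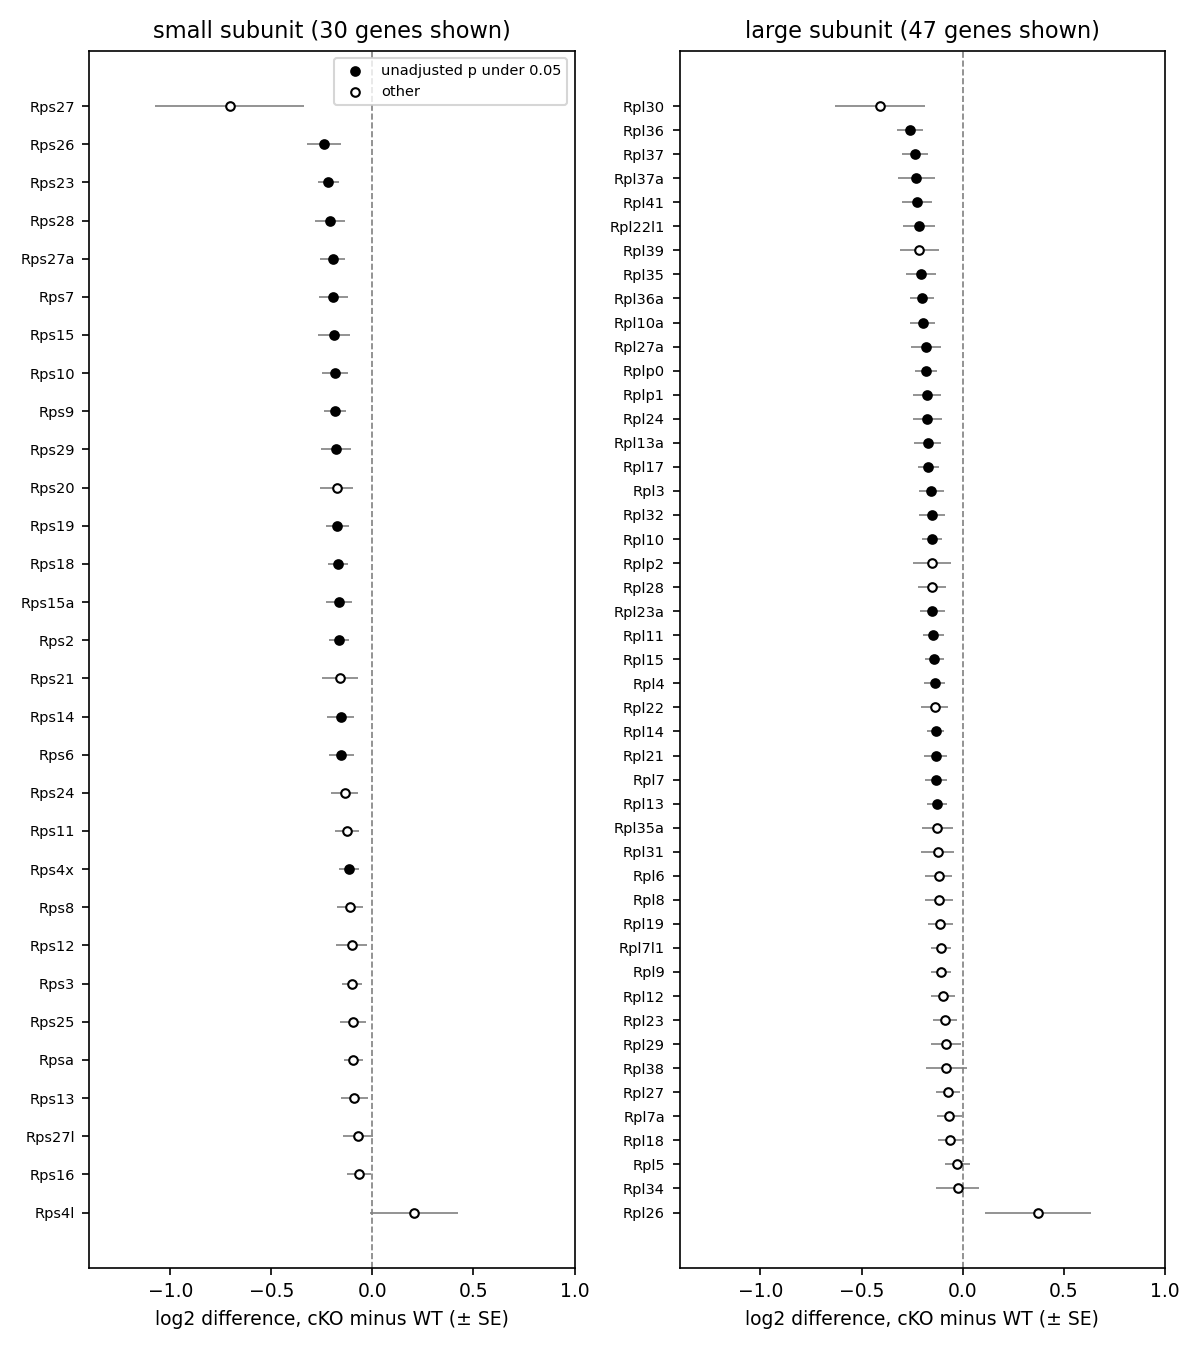
Each point is the log2 difference, cKO minus WT, of 1 of 77 tested genes with its standard error (4 cKO and 4 WT libraries), small subunit on the left and large subunit on the right, sorted by difference. Filled points have an unadjusted limma p under 0.05; 75 of 77 points lie left of 0, most between -0.25 and 0, with Rps27 and Rpl30 far to the left and Rpl26 and Rps4l to the right.

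The values of both subunits were close, and the difference between them was not tested. In the small subunit 31 of 32 genes had a lower cKO mean, 18 with an unadjusted p under 0.05 and 13 with no overlap between groups, at a median log2 difference of -0.16. In the large subunit it was 47 of 48, 26 and 16 genes, at a median of -0.14. Over all tested genes the same shares, in that order, were 52.6%, 3.03% and 1.9%. The mean level of a member over all libraries was between 7.98 FPKM (Rps4l) and 1558 FPKM (Rpl41), with medians of 358 FPKM in the small and 284 FPKM in the large subunit. Over the 80 members the log2 difference was somewhat more negative at higher levels (Spearman rho = -0.36). It was less negative where the longest annotated coding transcript was longer (rho = 0.34, 79 members). That transcript need not be the one expressed. These points share the same 8 libraries. By library, the deviation from the mean of the WT libraries (of the other WT libraries for a WT library) was also set against the same length. The rho was -0.16, 0.38, 0.32 and 0.42 in cKO 1 to 4 and 0.21, -0.02, -0.05 and -0.25 in WT 1 to 4.

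By library, the shift was found in cKO 2, 3 and 4. The median member lay at -0.02, -0.18, -0.10 and -0.28 from its WT mean in cKO 1 to 4 on the log2 scale, against -0.02, 0.01, -0.01 and 0.01 in WT 1 to 4. cKO 2 was below all 4 WT libraries in 76 of 80 members, cKO 3 in 61 and cKO 4 in 78. cKO 1 was below all WT libraries in 34 members (42.5%) and above all of them in 18 (22.5%), and its median was like that of a WT library. Over all tested genes the share below all WT libraries was 28.6%, 23.2%, 18.9% and 23.0% in cKO 1 to 4, and the share above all of them was 23.3% in cKO 1, close to that of the members. The members' summed FPKM made up 6.77%, 5.93%, 6.20% and 5.70% of the total in cKO 1 to 4, against 6.64%, 6.67%, 6.84% and 6.84% in WT 1 to 4, so the share of 3 cKO libraries was under every WT share. A bulk sample cannot tell fewer cells of a type with many ribosomes from less ribosomal protein mRNA in each cell.

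**Figure D2:**
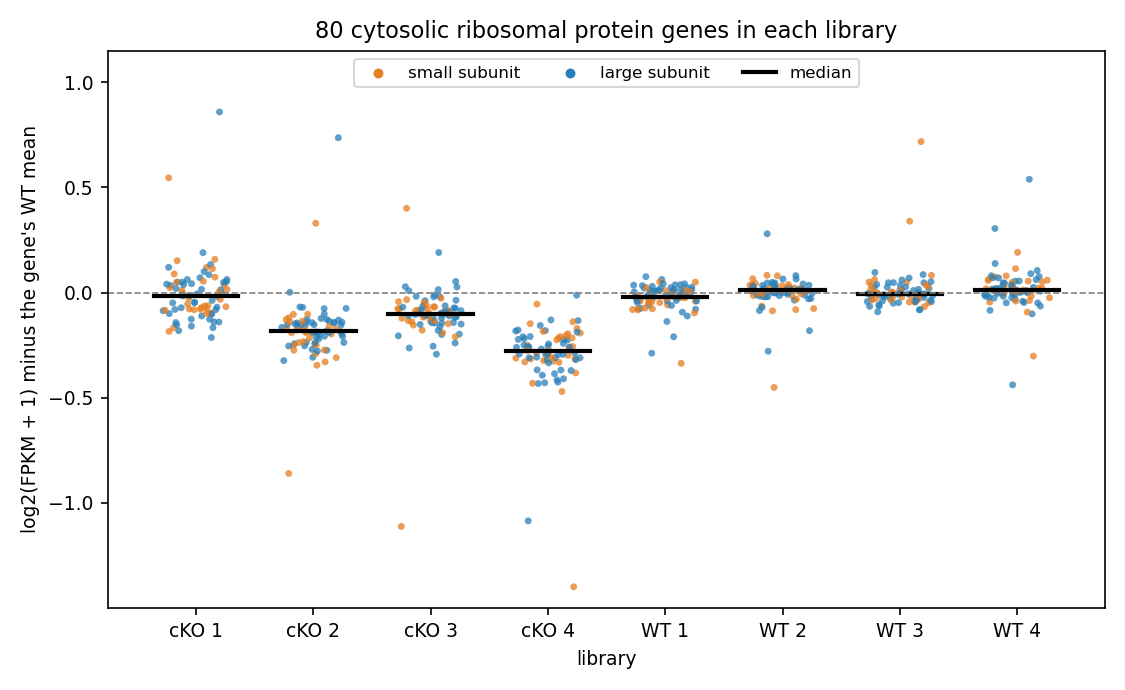
Each point is 1 of the 80 tested members in 1 library, as log2(FPKM + 1) minus that gene's mean over the 4 WT libraries; orange marks the small and blue the large subunit, and black bars are library medians. The medians of cKO 2, 3 and 4 are at -0.18, -0.10 and -0.28, while cKO 1 and the 4 WT libraries are within 0.02 of 0.

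Without cKO 1, no member was called either (0 of 80, limma), beside 0.0348% of all tested genes, which is 4 genes. The median then was -0.18, and 77 of 80 members had a lower cKO mean, beside 50% of all tested genes. An unadjusted p under 0.05 was then reached by 67 lower members, beside 4.14% of all genes, and 61 had no overlap between groups, beside 4.24%. The smallest adjusted p of a member was 0.175 in that limma fit, for Rpl36. With the mean of the epithelial markers as a covariate the family median was -0.19, and 64 of 80 members were lower at an unadjusted p under 0.05, beside 4.09% of all genes. The part of the myeloid, lymphoid, endothelial and smooth muscle markers in the members' values was not tested.

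Ordered by what the proteins do, the groups gave similar values. The decoding centre and the mRNA entry of the small subunit, where codons meet tRNA and the message enters, are lined by Rps23, Rps2, Rps9 and Rps3. All 4 genes had a lower cKO mean, at a median of -0.17, and 3 had an unadjusted p under 0.05, beside 3.03% of all tested genes. Rps23, which sits at the decoding centre, had 645, 609, 665 and 575 FPKM in cKO 1 to 4, against 715, 729, 721 and 731 FPKM in WT 1 to 4. Every cKO library was below every WT library, and the WT libraries lay close together. Its log2 difference was -0.22 (SE 0.05, limma, unadjusted p = 0.00246, adjusted p = 0.897).

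Rps2 had 726, 726, 771 and 720 FPKM in cKO 1 to 4 and 802, 864, 798 and 838 FPKM in WT 1 to 4. Rps9 had 510, 476, 496 and 438 FPKM in cKO 1 to 4 and 535, 553, 538 and 551 FPKM in WT 1 to 4. In both genes the groups did not overlap, and cKO 4 was the lowest library. The differences were -0.17 (SE 0.05) in Rps2 and -0.18 (SE 0.05) in Rps9, both with a limma adjusted p of 0.897.

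Rps6 is the small subunit protein that S6 kinases phosphorylate downstream of mTORC1. It had 250, 232, 249 and 211 FPKM in cKO 1 to 4 and 263, 276, 249 and 257 FPKM in WT 1 to 4. cKO 1 and cKO 3 were level with WT 3, and cKO 4 was again the lowest. The difference was -0.15 (SE 0.06, limma, adjusted p = 0.897). Rpsa, a platform protein also known as the laminin receptor, had 222, 201, 206 and 201 FPKM in cKO 1 to 4 and 222, 227, 214 and 221 FPKM in WT 1 to 4, with cKO 1 inside the WT range and the other cKO libraries below it.

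The platform, where the mRNA leaves (Rps14, Rps26, Rps28, Rpsa and Rps21), had 5 of 5 genes lower in the cKO mean at a median of -0.16, the beak (Rps10, Rps12 and Rps27a) 3 of 3 at -0.18, and the head (Rps15, Rps18, Rps19, Rps25 and Rps29) 5 of 5 at -0.17. The head proteins Rps18 and Rps29 were also among the most abundant members. Rps18 had 871, 809, 833 and 773 FPKM in cKO 1 to 4 and 895, 944, 933 and 921 FPKM in WT 1 to 4, with no overlap. Rps29 had 1011, 818, 913 and 804 FPKM in cKO 1 to 4 and 985, 991, 986 and 1043 FPKM in WT 1 to 4, with cKO 1 inside the WT range. Their differences were -0.17 (SE 0.05) and -0.18 (SE 0.07), with limma adjusted p values of 0.897.

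In the large subunit, the stalk recruits and activates the GTPases of translation and is built from Rplp0, Rplp1 and Rplp2, with Rpl12 at its base. All 4 had a lower cKO mean, at a median of -0.16, and 2 had an unadjusted p under 0.05, beside 3.03% of all tested genes. Rplp0, the scaffold, had 436, 406, 419 and 373 FPKM in cKO 1 to 4 and 472, 457, 469 and 455 FPKM in WT 1 to 4, with no overlap (difference -0.18, SE 0.05, limma, adjusted p = 0.897). Rplp1 had 565, 467, 466 and 459 FPKM in cKO 1 to 4 and 542, 557, 532 and 572 FPKM in WT 1 to 4. Here cKO 1 was inside the WT range and the other 3 cKO libraries were tightly grouped below it.

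Rplp2 had 403, 302, 332 and 294 FPKM in cKO 1 to 4 and 344, 388, 371 and 366 FPKM in WT 1 to 4. Rpl12 had 293, 247, 272 and 250 FPKM in cKO 1 to 4 and 285, 283, 275 and 291 FPKM in WT 1 to 4. In both, cKO 1 was the highest of all 8 libraries and cKO 2, 3 and 4 were below every WT library.

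Rpl5 and Rpl11 travel with the 5S rRNA before joining the large subunit, and when free they bind and inhibit Mdm2, the ubiquitin ligase of p53. Rpl5 had 158, 138, 148 and 129 FPKM in cKO 1 to 4 and 147, 147, 145 and 144 FPKM in WT 1 to 4. The cKO values lay on both sides of a narrow WT range, and the difference of -0.03 (SE 0.06, limma, adjusted p = 0.983) was one of the smallest of the family. Its sign turned to 0.02 after quantile normalization, to 0.01 after rescaling to a fixed FPKM sum and to 0.02 without cKO 4. Rpl11 had 254, 241, 246 and 224 FPKM in cKO 1 to 4 and 275, 271, 256 and 265 FPKM in WT 1 to 4, all cKO libraries being lower (difference -0.14, SE 0.05, adjusted p = 0.897).

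Next to the peptidyl transferase centre, where the peptide bond forms, Rpl3, Rpl10 and Rpl8 had a lower cKO mean in 3 of 3 genes at a median of -0.15. Rpl10, which joins in the last steps of large subunit assembly, had 761, 734, 762 and 685 FPKM in cKO 1 to 4 and 824, 825, 801 and 815 FPKM in WT 1 to 4, with no overlap. Around the exit tunnel (Rpl4, Rpl17, Rpl39, Rpl23a, Rpl35, Rpl19, Rpl26 and Rpl31) 7 of 8 genes were lower in the mean at a median of -0.14, the exception being Rpl26, which has a near-identical copy in the table.

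Rpl36 and Rpl37 had the 2 smallest unadjusted p values of the large subunit. Rpl36 had 606, 518, 534 and 488 FPKM in cKO 1 to 4 and 629, 643, 646 and 645 FPKM in WT 1 to 4, a difference of -0.26 (SE 0.06, limma, unadjusted p = 0.00258, adjusted p = 0.897). Rpl37 had 203, 184, 190 and 163 FPKM in cKO 1 to 4 and 217, 216, 216 and 221 FPKM in WT 1 to 4 (difference -0.24, SE 0.06). In both the WT libraries were nearly equal, and cKO 1 was the cKO library nearest to them.

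Rpl41, which encodes a very short basic peptide between the subunits, was the most abundant member, at 1623, 1417, 1455 and 1258 FPKM in cKO 1 to 4 and 1688, 1655, 1637 and 1730 FPKM in WT 1 to 4 (difference -0.23, SE 0.07). Rpl13 had 1120, 1064, 1067 and 992 FPKM in cKO 1 to 4 and 1176, 1174, 1136 and 1148 FPKM in WT 1 to 4 (difference -0.13, SE 0.05). The groups overlapped in neither gene, and cKO 4 was the lowest library in both.

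**Figure D3:**
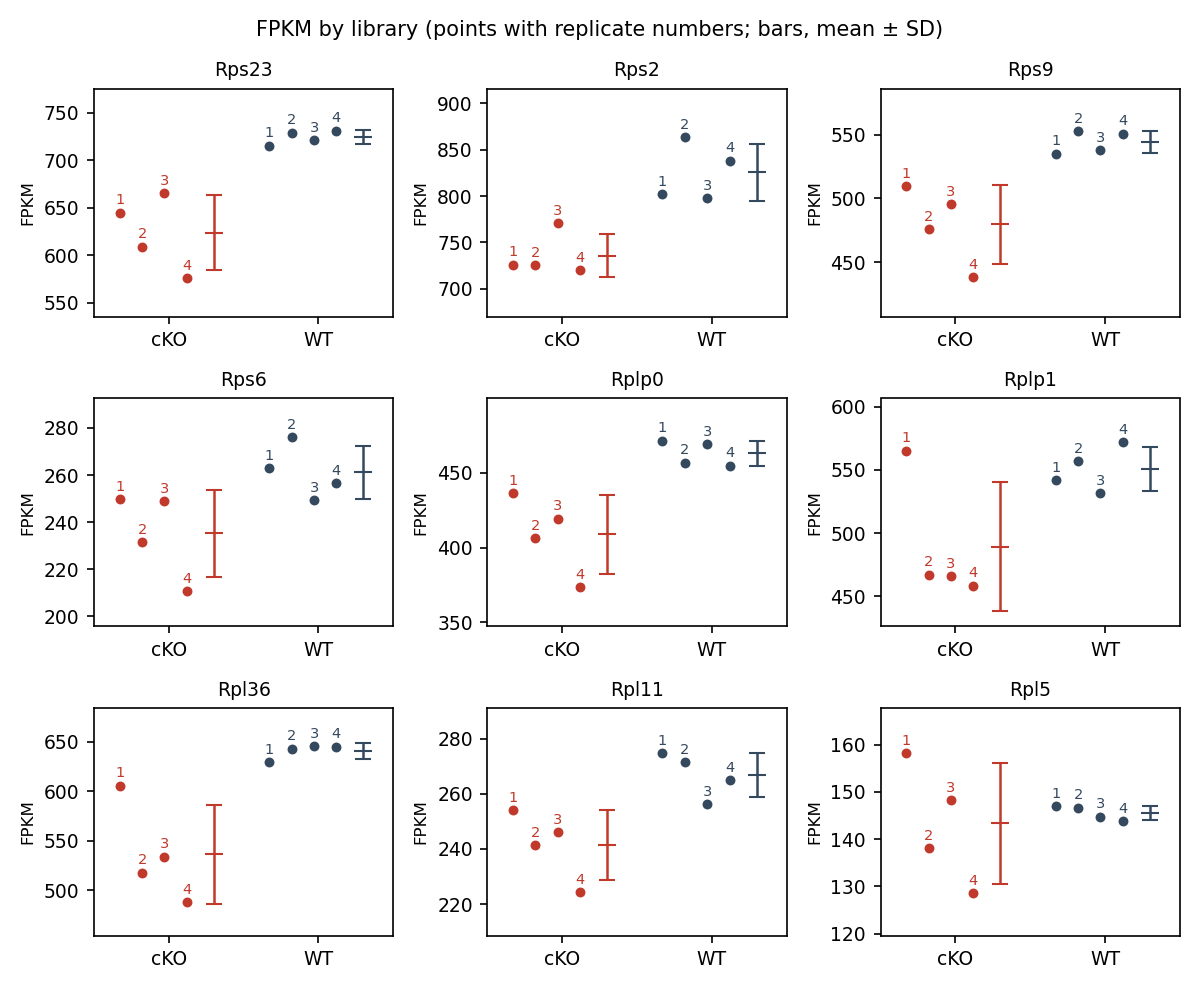
FPKM of 9 members in each library, with replicate numbers beside the points and the mean ± SD of each group (n = 4) at its right; the vertical axes do not start at 0. The groups do not overlap in Rps23, Rps2, Rps9, Rplp0, Rpl36 and Rpl11, cKO 1 reaches the WT range in Rps6 and Rplp1, and in Rpl5 the cKO libraries lie on both sides of the WT libraries.

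Some paralogues are known to stand in for the canonical protein in particular tissues, and their ratio to the canonical gene was compared in each library. In 6 pairs with both genes tested, the two-sided exact permutation test, which allows a smallest p of 0.0286, gave no p under 0.05. Rpl22l1 was more abundant than Rpl22, an RNA-binding large subunit protein that it can replace. Rpl22l1 had 137, 141, 155 and 118 FPKM in cKO 1 to 4 and 160, 159, 151 and 169 FPKM in WT 1 to 4. Rpl22 had 30.7, 25.1, 27.1 and 27.7 FPKM in cKO 1 to 4 and 32.1, 30.4, 28.7 and 30.6 FPKM in WT 1 to 4. The log2 ratio averaged 2.27 ± 0.22 in cKO and 2.35 ± 0.06 in WT libraries (SD, n = 4 each), a difference of -0.08 (exact permutation p = 0.457, adjusted over the 6 pairs 0.686).

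Rpl7l1, related to Rpl7 in 62.6% of aligned coding bases, had 31.9, 30.8, 31.5 and 30.8 FPKM in cKO 1 to 4 and 34.6, 32.1, 32.9 and 35.5 FPKM in WT 1 to 4. Rpl7 had 594, 552, 585 and 512 FPKM in cKO 1 to 4 and 624, 629, 605 and 596 FPKM in WT 1 to 4. Both were below the WT range in all 4 cKO libraries, and their log2 ratio differed by 0.02 (exact permutation p = 0.743, adjusted 0.891). Rpl36al had 269, 199, 213 and 191 FPKM in cKO 1 to 4 and 218, 234, 206 and 263 FPKM in WT 1 to 4, with overlapping groups. Rpl36a had 191, 185, 197 and 169 FPKM in cKO 1 to 4 and 210, 216, 200 and 227 FPKM in WT 1 to 4, with no overlap. Their ratio differed by 0.12 (exact permutation p = 0.314, adjusted 0.629).

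Rps4x, the X-linked small subunit gene, had 418, 404, 427 and 383 FPKM in cKO 1 to 4 and 429, 448, 433 and 457 FPKM in WT 1 to 4. Rps4l, its intronless relative, is annotated in GENCODE M21 as a transcribed processed pseudogene and is counted here among the small subunit members. It had 8.03, 9.21, 9.73 and 6.82 FPKM in cKO 1 to 4 and 5.44, 6.68, 12.4 and 5.59 FPKM in WT 1 to 4. WT 3 was the highest library in Rps4l, and the groups overlapped (log2 difference 0.21, SE 0.22, limma, adjusted p = 0.950). The ratio differed by 0.32 (exact permutation p = 0.286, adjusted 0.629).

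The paralogues known from striated muscle and testis were at or near the floor. Rpl3l, of muscle, was listed at 0 in all cKO libraries and in WT 1 and 2, and at 0.0454 and 0.0906 FPKM in WT 3 and 4. Rpl39l had 0.0875 FPKM in cKO 2 and 0.176 FPKM in WT 3 and was listed at 0 in the other libraries, and Rpl10l was listed at 0 in all 8. Their canonical genes were abundant, Rpl3 at 380, 382, 416 and 341 FPKM in cKO 1 to 4 and 422, 423, 436 and 408 FPKM in WT 1 to 4, and Rpl39 at 506, 395, 447 and 368 FPKM in cKO 1 to 4 and 457, 511, 479 and 531 FPKM in WT 1 to 4.

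Rps27 had the most negative difference of the family, and its values moved against those of a copy with the same coding sequence. Rps27, a gene of several exons for a zinc-binding small subunit protein (chr3:90212522-90213651, minus strand, GRCm38), had 1703, 642, 539 and 442 FPKM in cKO 1 to 4 and 1103, 853, 1476 and 1332 FPKM in WT 1 to 4. Rps27rt, a single-exon gene (chr9:114982366-114982739, minus strand), had 8.37, 918, 1028 and 1062 FPKM in cKO 1 to 4 and 642, 852, 307 and 452 FPKM in WT 1 to 4. Where 1 was high the other was low, in both groups. Their sum was 1711, 1561, 1567 and 1503 FPKM in cKO 1 to 4 and 1745, 1705, 1783 and 1784 FPKM in WT 1 to 4.

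The log2 difference of that sum was -0.15 (SE 0.05, limma, adjusted p = 0.894), near the family median, while Rps27 alone stood at -0.71 (SE 0.37, adjusted p = 0.897). The log2 ratio of Rps27rt to Rps27 differed by -0.05 (exact permutation p = 1) and by 2.05 without cKO 1. The FPKM of genes of unlike length do not add exactly, and the sum is approximate.

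The coding sequences are shown because the values of Rps27 and Rps27rt moved against each other. How fragments were assigned between them was not tested. All 252 bases of Rps27 (stop codon excluded) are the same in Rps27rt, and Rps27l differs at 60 of them, which are in capitals in its line. The sequences are those of GENCODE M21 transcripts on GRCm38.
Rps27 and Rps27rt: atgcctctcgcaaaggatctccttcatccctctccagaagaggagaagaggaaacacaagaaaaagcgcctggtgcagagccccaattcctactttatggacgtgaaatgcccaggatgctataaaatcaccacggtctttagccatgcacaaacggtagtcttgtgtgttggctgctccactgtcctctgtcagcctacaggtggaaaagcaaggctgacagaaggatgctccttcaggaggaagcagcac
Rps27l: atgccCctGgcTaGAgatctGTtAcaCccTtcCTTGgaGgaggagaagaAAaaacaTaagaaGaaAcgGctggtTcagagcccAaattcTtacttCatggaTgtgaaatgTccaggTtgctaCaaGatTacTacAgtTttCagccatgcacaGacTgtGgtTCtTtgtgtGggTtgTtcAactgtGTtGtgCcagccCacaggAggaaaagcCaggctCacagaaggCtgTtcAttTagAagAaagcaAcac
Rps27l, a paralogue that p53 activates, had 273, 225, 222 and 215 FPKM in cKO 1 to 4 and 240, 251, 241 and 247 FPKM in WT 1 to 4, with cKO 1 the highest and the other cKO libraries the lowest of the 8 (difference -0.07, SE 0.07, limma, adjusted p = 0.948). Its log2 ratio to Rps27 differed by 0.64 (exact permutation p = 0.171, adjusted 0.629), a value that carries the split of Rps27 from its copy.

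Rpl26, the exit tunnel gene with the highest positive difference, had 41.1, 37.6, 25.5 and 17.9 FPKM in cKO 1 to 4 and 18.0, 18.1, 22.6 and 32.7 FPKM in WT 1 to 4. The symbol Gm15772, a near-identical locus, held most of the signal, with 457, 419, 478 and 444 FPKM in cKO 1 to 4 and 534, 529, 543 and 546 FPKM in WT 1 to 4. The Rpl26 groups overlapped, whereas every cKO library was below every WT library in Gm15772. Rpl26 alone differed by 0.37 (SE 0.26, limma, adjusted p = 0.929), and the sum by -0.22 (SE 0.05, adjusted p = 0.844). The sum turned the direction.

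Rpl30 and Rpl34 were named after their values were seen. Rpl30 had 18.5, 20.1, 17.1 and 9.43 FPKM in cKO 1 to 4 and 22.1, 25.9, 22.7 and 15.3 FPKM in WT 1 to 4. Its difference was -0.41 alone and -0.01 (SE 0.06, limma, adjusted p = 0.994) when summed with Gm12191, which held 318 to 369 FPKM in cKO and 326 to 349 FPKM in WT libraries. Rpl34 differed by -0.03 alone and by -0.12 (SE 0.05, adjusted p = 0.894) when summed with Rpl34-ps1. In each of these 4 pairs the sum lay nearer to the family median than the gene alone. This did not hold for every member with a copy in the table. Summed with their copies, Rpl21 went from -0.13 to -0.11 and Rps15a from -0.17 to -0.18, both away from the median of -0.15.

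**Figure D4:**
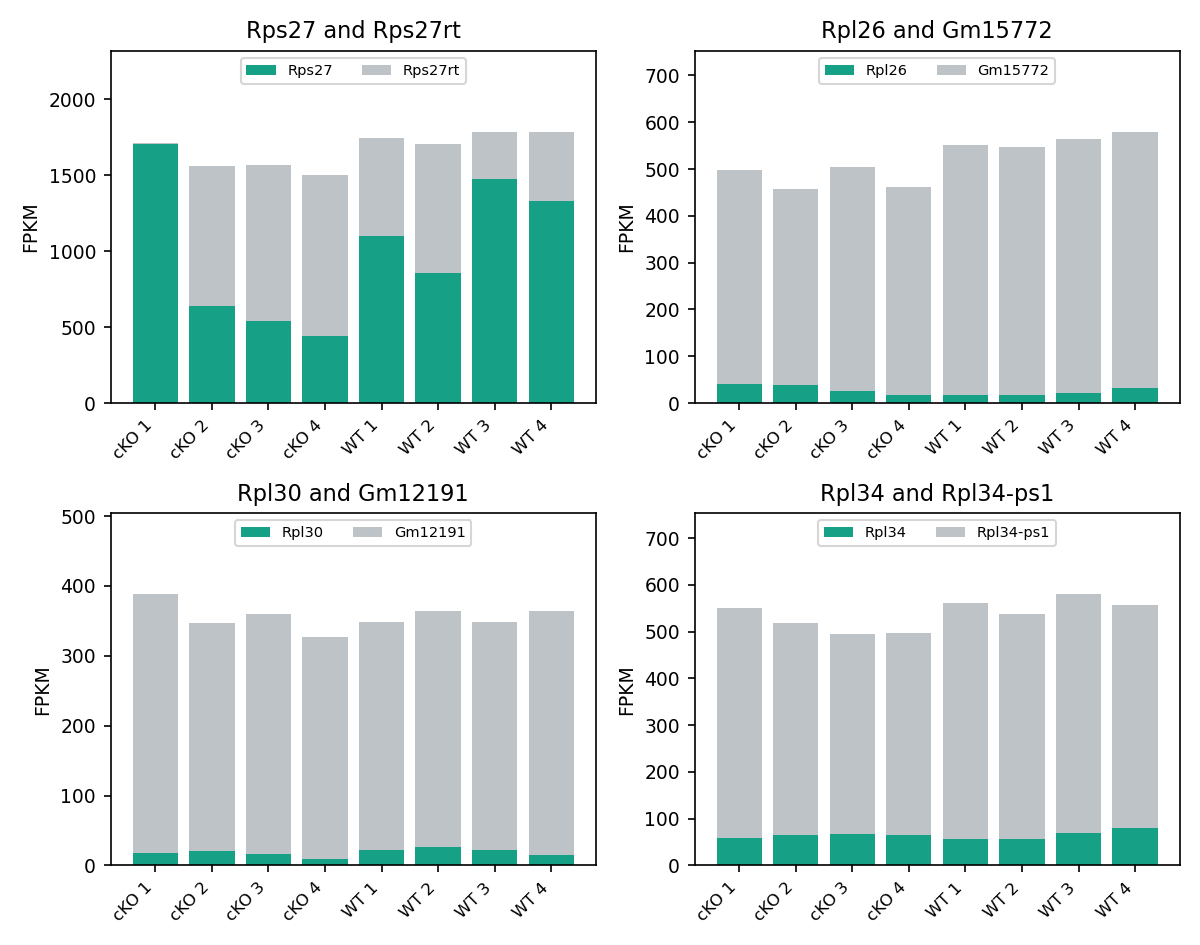
FPKM of 4 members (green) stacked with that of the near-identical symbol in the same table (grey) in each library. The split between Rps27 and Rps27rt varies between libraries from nearly all Rps27 in cKO 1 to mostly Rps27rt in cKO 4, while the stacks stay between 1503 and 1784 FPKM.

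Such copies are common in the family. The longest annotated coding part of each gene was searched for loci with at least 95% identity over at least 90% of it. Such a locus was found for 71 of the 79 tested members with an annotated coding part. The median was 5 loci and the most 56, for Rpl21. Copies of a shorter coding form can be missed this way. Rps27l, for which no locus was found, was searched with 315 bases, while its form compared with Rps27 above has 252. In 13 members a copy has its own symbol in the deposited table. Rps27rt, BC004004 (for Rpl21), Gm6525 (for Rpl36a) and Wdr89 (for Rplp2) are annotated as protein coding, the other symbols as pseudogenes. Whether the FPKM of these symbols comes only from the copied stretch was not tested. With those 13 summed with their copies, 79 of 80 members had a lower cKO mean, at a median of -0.15. An unadjusted p under 0.05 was then reached by 46 lower members, beside 3.03% of all genes tested in that setting. The 67 members without a copy in the table, most of which have such loci elsewhere in the genome, were lower in 66 at a median of -0.15. The 8 members for which this search found no near-identical locus were lower in 8 of 8 at -0.12. Of these, 3 had an unadjusted p under 0.05, beside 3.03% of all tested genes.

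The start of the transcripts was examined because the members moved together and share the TOP motif. Windows of 30 bases, 15 on each side of the RefSeq start on GRCm38.p6, are shown for 4 members with a pyrimidine run of C followed by at least 4 C or T exactly at the start, in capitals, and for 2 members described above without it.
Rps6, chr4:86857353-86857382, minus strand: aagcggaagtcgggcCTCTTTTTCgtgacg
Rps27, chr3:90213634-90213663, minus strand: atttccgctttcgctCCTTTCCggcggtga
Rps18, chr17:33955651-33955680, minus strand: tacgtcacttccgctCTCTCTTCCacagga
Rpl28, chr7:4792950-4792979, plus strand: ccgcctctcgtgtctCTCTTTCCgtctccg
Rplp0, chr5:115559452-115559481, plus strand: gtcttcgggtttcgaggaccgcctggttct
Rpl5, chr5:107900513-107900542, plus strand: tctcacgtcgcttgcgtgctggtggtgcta
Such a run began at an annotated start in 13 of the 62 members with a promoter entry (21.0%), against 3.01% of 27025 genes (2.92% of the other tested genes). Within 10 bases of the start it was found in 62.9% of members and 34.4% of all genes (37.3% of the other tested genes). The letters CCGGAAG, on either strand between 250 bases before and 50 bases after the start, occurred in 40.3% of members and 9.93% of all genes (20.5% of the other tested genes), and TATAAA in 11.3% of members and 15.7% of all genes (8.75% of the other tested genes). A match is not a site, and annotated starts can lie some bases from the used ones. The 13 members with a run at the start were lower in 13 of 13 at a median of -0.15. The tested members with an entry and no run at the start were lower in 45 of 46 at -0.14, which are close values.

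Members that carry small nucleolar RNA genes in their introns and those that do not had close values, with 29 of 29 lower at a median of -0.14 and 49 of 51 lower at -0.15. The 7 tested symbols of the family outside the naming rule, with the processed pseudogene Rpl34-ps1 counted, had a negative log2 difference in 7 of 7. The median was -0.13, and 6 of 7 were negative without cKO 1. The sign of Rps27rt rests on its 8.37 FPKM in cKO 1, and its mean FPKM was higher in cKO (754) than in WT (563). Rps3a1, a small subunit protein, had 527, 508, 538 and 459 FPKM in cKO 1 to 4 and 575, 586, 573 and 572 FPKM in WT 1 to 4, with no overlap. Gnb2l1 (Rack1), a scaffold on the small subunit, had 200, 183, 193 and 168 FPKM in cKO 1 to 4 and 189, 195, 189 and 196 FPKM in WT 1 to 4, with cKO 1 the highest and cKO 2 and 4 the lowest.

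Genes of the same pathway were read from lists, with limma adjusted p values of 0.897 for each gene named. Of 24 TOP mRNAs outside the naming rule, 22 were lower in the cKO mean, at a median of -0.09. An unadjusted p under 0.05 was reached by 3 lower ones (12.5%), beside 3.03% of all tested genes. Fau and Gnb2l1 are in this list and also among the 7 symbols of the family above. Eef1a1, the elongation factor that delivers tRNA, had 1343, 1399, 1447 and 1241 FPKM in cKO 1 to 4 and 1555, 1537, 1520 and 1429 FPKM in WT 1 to 4 (difference -0.16, SE 0.06), with cKO 3 inside the WT range. Eef1g differed by -0.12 (SE 0.05) and Eif3h by -0.14 (SE 0.05). Other translation factors were lower in 24 of 35 at a median of -0.03. At an unadjusted p under 0.05, 1 was lower (2.86%; Etf1, a release factor, -0.16) and 1 higher (Eef1e1, 0.22), shares close to the 3.03% and 2.37% of all tested genes.

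Ribosome biogenesis factors were lower in 34 of 49 at a median of -0.02. Nop58, a core protein of box C/D small nucleolar particles, had 106, 90.3, 94.2 and 91.8 FPKM in cKO 1 to 4 and 139, 131, 112 and 103 FPKM in WT 1 to 4 (difference -0.33, SE 0.10), with cKO 1 inside the WT range. Nop10, of the H/ACA particles, differed by -0.19 (SE 0.06), and Riok1, a kinase of small subunit maturation, by 0.18 (SE 0.08). RNA polymerase I genes were lower in 10 of 15 at a median of -0.03 and growth signalling genes in 13 of 19 at -0.04, with Rps6kb2, an S6 kinase, at 0.27 (SE 0.11). Mitochondrial ribosomal protein genes, which build the separate ribosome of that organelle, were lower in 46 of 77 at a median of -0.01, against -0.01 over all tested genes.

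Most members are abundant and many have short transcripts, so abundant or short genes outside the family were set beside them. Length was again that of the longest annotated coding transcript. Some members have annotated transcripts over the limit of 1000 bases used here, such as Rplp0 at 1358 and Rpl4 at 1538. Of 742 other genes with a mean of at least 100 FPKM, 560 (75.5%) were lower in the cKO mean, at a median of -0.04. Of 515 other genes with transcripts under 1000 bases, 298 were lower at a median of -0.02. Of the 120 with both properties, 95 were lower at a median of -0.06, and 106 at -0.11 without cKO 1, where the members stood at -0.18. These 120 genes lay at 0.09, -0.10, -0.05 and -0.16 from their WT means in cKO 1 to 4, the same order of cKO libraries as in the members. The part of transcript length and abundance in the members' difference was not tested.

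**Figure D5:**
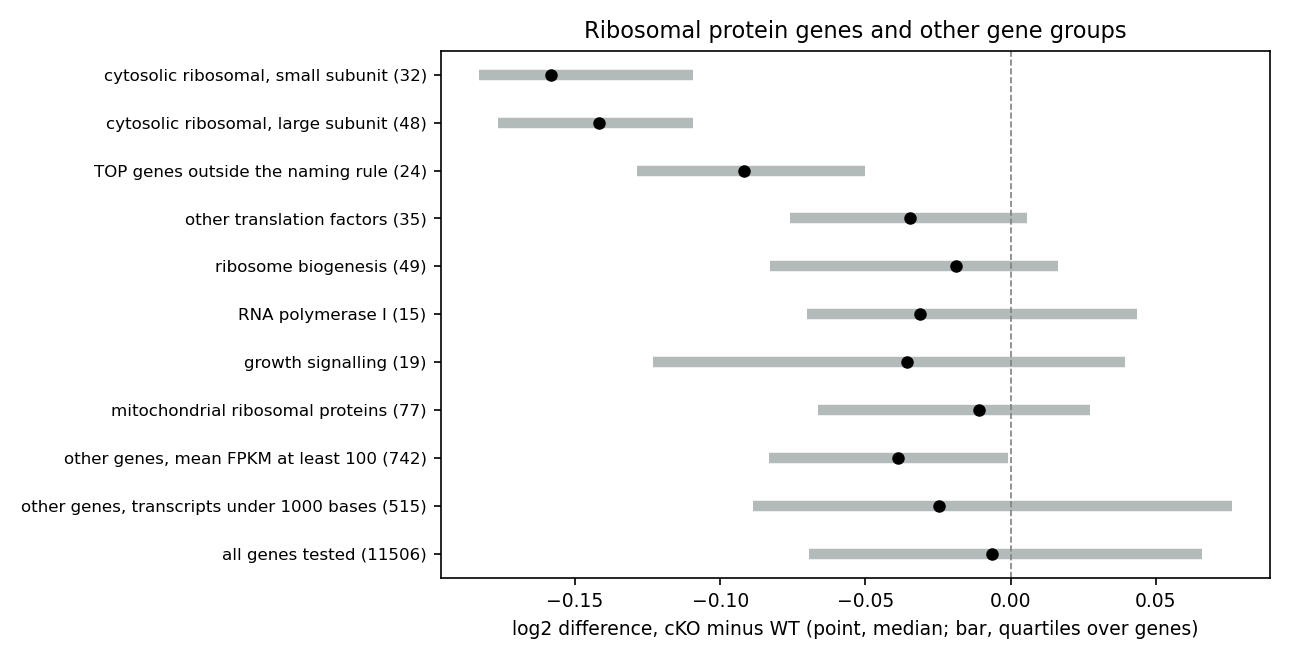
Median (point) and quartiles (bar) of the log2 difference, cKO minus WT, over the tested genes of each group, with the number of genes in parentheses. The small and large subunit groups lie at -0.16 and -0.14, the TOP genes outside the naming rule at -0.09 and the remaining groups between -0.04 and 0.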

How the data were processed

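RNA-seq of 4 cKO and 4 WT libraries was analysed, each of 1 mouse according to the design text. FPKM values, in a table for each library, are what the authors deposited. Full-length SMART-Seq cDNA was sequenced, per the labels' protocols, and the submitters' processing notes name mm10, Cufflinks 2.2.1 with Cuffdiff, TopHat2 2.1.1, SAMtools 0.1.18 and Bowtie2 2.3.5.1. Neither the annotation nor the handling of fragments that map to several loci is stated in those notes. Such handling can move FPKM between near-identical copies.

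Values were transformed to log2(FPKM + 1). Genes with a mean of at least 1 FPKM (11506) were fitted with limma 3.58.1 in R 4.3.3 (lmFit, eBayes with trend), with Benjamini-Hochberg adjustment over all of them. The log2 scale with a pseudocount of 1 understates changes of low genes. Ratios of paralogues were compared by two-sided exact permutation tests over the 70 arrangements, adjusted over 6 pairs. Near-identical loci were found with BLAST+ 2.17.0 in GENCODE M21 (GRCm38) transcripts, and promoter windows are from RefSeq (GRCm38.p6). Fragment counts were not analysed, so no counting interval is given. Low values lay on common steps for 45.2% to 53.2% of genes (tolerance 0.002 on the log2 scale), too few for counts to be recovered. The fit was tested on simulated data.

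The members, lists and naming rule were chosen with earlier results of these data known. Members named with values in each library were the 3 most abundant and the 3 with the smallest unadjusted p in each subunit. The others so named were those with a positive difference, the paralogue pairs, the stalk, Rpl5, Rpl11, Rps6 and Rpsa. Pathway genes given with a difference came from the 3 of each list with the smallest unadjusted p, and not all of them are given. Among these, just Eef1a1 and Nop58 have values in each library. A few genes that these rules name or list are not reported here one by one, but count in the totals over the family and the lists. Summing near-identical copies was added after seeing the data. Other alternatives were pseudocounts, filters, scalings, spread models, a replicate block, an epithelial covariate and leaving out each library.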

Additional observations from a re-analysis of the deposited data

Results flagged for a closer look

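Among 82 groups of 4 libraries examined, which are the named members and paralogue ratios in each genotype, 6 were flagged for 1 library far from the other 3. The distance was measured on the log2(FPKM + 1) scale, as the gap to the nearest library over the range of the group. Chance alone gives about 1 such group in 20. The gap was 0.901 of the range for Rps29 in WT 4 (highest, 1043 FPKM), 0.886 for Rps2 in cKO 3 (highest, 771 FPKM) and 0.856 for Rpl36 in WT 1 (lowest, 629 FPKM). Rplp1 was highest in cKO 1 with 565 FPKM and a gap of 0.913. Rps27rt was lowest in cKO 1 with 8.37 FPKM and a gap of 0.969, and the log2 ratio of Rps27rt to Rps27 was lowest there at -7.51 with a gap of 0.915.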

How the results depend on the processing

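The family median stayed between -0.19 (epithelial covariate) and -0.10 (quantile normalization) over 22 alternatives, 1 of which kept just the members with no copy in the table. Of the 80 tested members, 76 to 79 had a lower cKO mean and 0 were called in each of the other 21. The count of members lower at an unadjusted p under 0.05 was 44, and 20 after quantile normalization, 27 without the mean-variance trend, 64 with the epithelial covariate, 67 without cKO 1, 23 without cKO 2, 22 without cKO 4 and 27 to 29 without 1 WT library. Beside these counts, 2.02% to 4.14% of all tested genes were lower at that p in the same settings. Leaving out 1 library gave 1 to 4 called genes among all tested (4 without cKO 1, 2 without cKO 2 and 3 without WT 3), medians of -0.18 to -0.11 and 0 called members. Rpl26 turned to -0.22 with copies summed. Rps27rt turned to 0.82 with the epithelial covariate and to 0.93 without cKO 1, and with 1 library left out it ran between -1.35 and 0.93. Rpl5 turned to 0.022 after quantile normalization and 0.0087 after rescaling to a fixed sum, and ran between -0.075 and 0.024 with 1 library left out, turning without cKO 4. The ratio of Rpl7l1 to Rpl7 turned to -0.061 after quantile normalization and ran between -0.013 and 0.060 with 1 library left out, and that of Rps27rt to Rps27 between -0.87 and 2.05. The cause was not tested, except that the copies were added up by construction. Of 671 values of single named genes under these alternatives, 665 kept their direction and none passed the threshold. Same-numbered libraries correlated at 0.0912, 0.0336, 0.0190 and 0.0182 in their deviations, and differently numbered ones at -0.123 to 0.131. Such values show no pairing by number, but they cannot exclude it. With the replicate block the median was -0.15 and 78 members were lower. Of these, 34 had an unadjusted p under 0.05, beside 2.79% of all tested genes. With the block, 0 members and 1 gene of all tested were called, and no paralogue ratio passed. The covariate and the spread models were not run for the ratios. With 4 against 3 libraries the exact p cannot fall below 0.0571.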
